A study of Mus musculus with 4 samples.

Results

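The Treg library was compared with the Th0 library, a culture of T cells under regulatory conditions against a culture of T cells under stimulation alone, for every gene that reached 10 counts in either of these 2 libraries. That filter left 13138 of the 34745 genes of the deposited table. All cells came from wild type mice of the strain C57BL/6 and were labelled as CD4+ T cells of the spleen. Th0 cells had received αCD3/CD28 stimulation for 3 days, and Treg cells had spent 3 days in Treg differentiation conditions. Cytokines, antibodies and doses of those conditions are not named in the sources used here. The series also holds naive CD4+ T cells, selected from spleen without culture, and Th17 cells after 3 days in Th17 differentiation conditions, and their levels stand beside the other pair below. Each group was 1 library, nothing in the labels says how many mice or cultures went into it, and so no difference given here has a replicate check and no test between conditions was possible. Every interval is a 95% counting interval, which compares the reads of these libraries and covers counting error only.

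Regulatory T cells restrain other lymphocytes and are marked by the transcription factor FOXP3. In culture, conventional CD4+ T cells can be driven to express Foxp3 by T cell receptor stimulation together with the cytokine TGF-beta, with IL-2 acting through STAT5. TGF-beta binds a pair of receptor kinases, which phosphorylate SMAD proteins that enter the nucleus. The same cytokine, together with IL-6, starts the Th17 programme, in which cells make IL-17, so that the Treg and Th17 routes share a signal and are known to overlap in their early stages. Stimulation through CD3 and CD28 without polarising cytokines, the Th0 condition, activates and expands the cells without directing them to either fate.

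The total count was 10272122 in Th0 and 10256627 in Treg, against 11901949 in naive and 12414372 in Th17, and 11686 and 12799 genes reached 10 counts in Th0 and Treg. Levels are given as CPM, the read count relative to a library size adjusted by TMM factors, so that 1 count was worth 0.114 CPM in Th0 and 0.0902 CPM in Treg. The Th0 library stood apart from the other 3 in how its counts were spread: its 100 most abundant genes took 23.3% of its counts, against 17.6% to 18.1% in the others. Its ratios also moved with base composition. When tested genes were divided into 10 equal classes by transcript GC content, the median log2 ratio of Treg over Th0 was -0.28 in the lowest class and 0.39 in the highest. The same pair of medians was -0.30 and 0.33 for Th17 over Th0, which shares the Th0 library, and the medians of Treg over Th17 lay between -0.02 and 0.03 in all 10 classes of GC content. Base composition therefore moved with both ratios over Th0, and its part in the results was not tested beyond a repeat of each count after GC and transcript length had been centred.

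**Figure D1:**
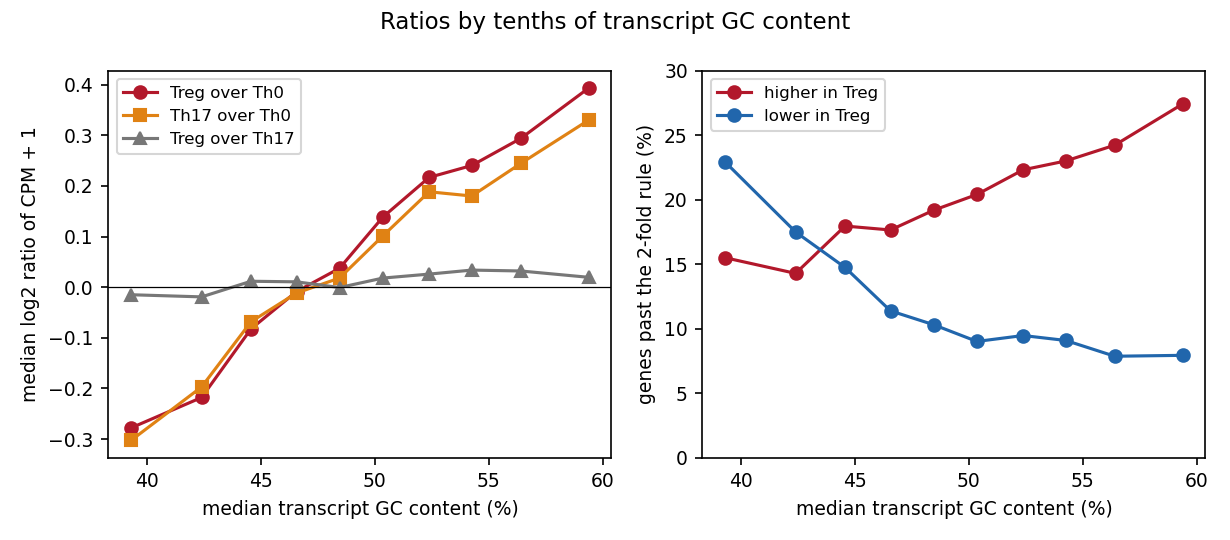
Median log2 ratio (left) and share of genes past the 2-fold rule (right, in %) in 10 equal classes of tested genes ordered by transcript GC content (x axis, in %). Both comparisons that use the Th0 library slope upwards from about -0.3 to above 0.3, Treg over Th17 stays near 0, and the share of genes higher in Treg goes from 15.5% to 27.4% while the share lower goes from 22.9% to 7.94%.

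A gene was called higher or lower in Treg when its ratio was at least 2-fold after 1 CPM had been added to both levels, and when the counting interval of the ratio excluded equality. Of the genes tested, 2653 (20.2%) were higher in Treg and 1575 (12%) were lower. Those 2 percentages are the background against which the counts in each group of genes below are read. Both varied with depth, at 37.2% higher and 9.29% lower where the larger count was 30 to 99. Where it was 1000 or more they were 9.37% and 21.8%. The groups of genes were not matched for depth. The median log2 ratio of all genes tested was 0.08. The higher side also held the more extreme ratios, with 643 genes at least 4-fold higher against 184 at least 4-fold lower, and 30 against 11 at 16-fold. With library totals as the scale the median of all genes was higher by 0.31 in log2 units, which changed the split of called genes from 62.7% higher to 81.8% higher. Upper quartile scaling moved the median by 0.14 and gave 72.5% higher. By rule, 18.6% of genes were higher and 13.4% lower with DESeq2 size factors, 27.6% and 6.17% with library totals, and 23.3% and 8.83% with upper quartile factors. The shares were 19.2% and 12.6% with TMM over this pair alone, and 19.9% and 10.9% with GC and length centred. The direction of small ratios therefore rests on the scaling, and genes whose call did not hold under all 5 scalings compared are marked below. Depth set the precision, with a median interval reaching 2.95-fold to either side where the larger count was 10 to 29 and 1.08-fold where it was 1000 or more. The 162 genes whose larger count was 9 lay just outside the filter and were not tested. Their log2 ratios ran from -1.02, which is past 2-fold, to 0.86, which is not. The filter therefore left out ratios past 2-fold on the lower side at this count, and none on the higher side. Of the 155 genes with a larger count of 10 none was higher and 4 were lower.

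**Figure D2:**
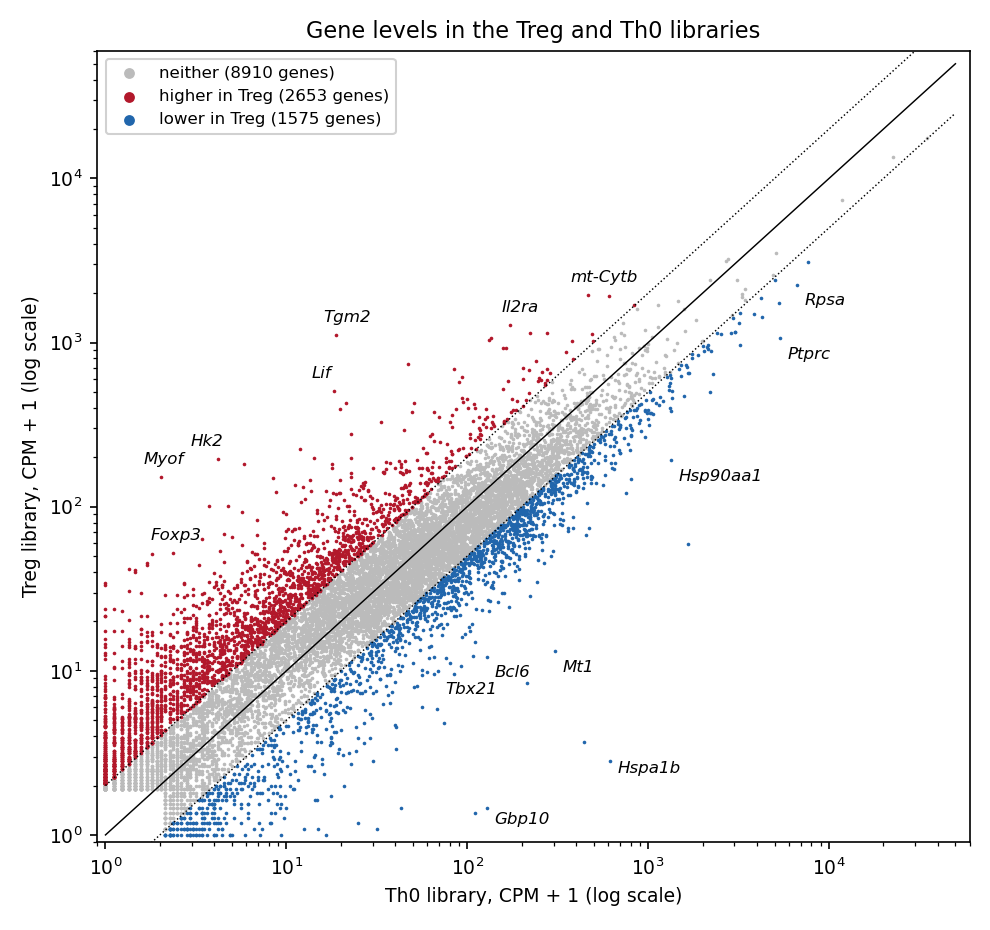
Level of each of the 13138 tested genes in Th0 (x axis) and Treg (y axis), in CPM plus 1 on log scales. Red points are the 2653 genes higher in Treg and blue points the 1575 lower, the solid line marks equality and the dotted lines 2-fold, and Foxp3, Hk2, Tgm2 and Hspa1b lie far from the diagonal.

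The labelled cell type was checked first. Of the 12 genes that define CD4+ T cells none was called in either direction, with a median log2 ratio of -0.28 that turned to 0.07 with library totals. The coreceptor gene Cd4 stood at 1199 CPM in Treg against 959 in Th0, with 1001 in Th17 and 698 in naive. Foxp3, which defines the Treg label, was read at 12 counts in Th0 and 571 in Treg. Its level was 51.5 CPM in Treg against 1.37 in Th0, with 11.3 in Th17 and 129 in naive, which made it 37.5-fold higher in Treg than in Th0 (interval 21.3 to 73). The Treg library was thus well above Th0 and above Th17, but below the naive library, whose uncultured splenic CD4+ cells were the highest of the 4. The gene lies on chromosome X, 7579676 to 7595243 in GRCm38, and 18.6% of its exonic bases are shared with the annotated gene Ppp1r3fos on the same strand, so reads there may belong to either. These are bulk libraries, in which more cells with Foxp3 and more Foxp3 RNA per cell cannot be told apart.

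Genes of the Treg programme were mostly higher in the Treg library. Of 25 tested members 16 were higher and 1 was lower (64% and 4.0%), with a median log2 ratio of 1.61, and the counts were the same with GC and length centred. Il2ra, the high-affinity chain of the IL-2 receptor, was read at 1287 CPM in Treg against 171 in Th0, with 1558 in Th17 and 71 in naive. It was 7.53-fold higher in Treg than in Th0 (interval 7.13 to 7.94) and was among the 10 largest gains in CPM of any gene, although the Th17 library held still more. Ikzf4, which encodes the FOXP3 partner Eos, stood at 21.6 CPM in Th0 and 277 CPM in Treg (12.8-fold). Socs2, an inhibitor of cytokine receptor signalling, stood at 4.01 CPM in Th0 and 64.2 CPM in Treg (16-fold), and the orphan receptor gene Gpr83 at 1.49 CPM in Th0 and 22.8 CPM in Treg (15.3-fold). The inhibitory receptor gene Ctla4 differed less, at 258 CPM in Th0 and 665 CPM in Treg (2.58-fold, interval 2.46 to 2.7).

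Surface genes of the programme had small counts in Th0. Itgae, the integrin chain CD103 that holds lymphocytes at epithelia, was read 18 times in Th0 and 186 times in Treg (8.14-fold higher). Nrp1, the semaphorin receptor often used to tell thymic from induced Treg cells, was read 11 times in Th0 and 118 times in Treg (8.45-fold higher, interval 4.55 to 17.4). In the naive library Nrp1 was at 64.5 CPM, above the 10.6 CPM of Treg. Ikzf2, which encodes Helios, met neither rule, at 52.1 CPM in Treg against 41.9 in Th0, with 39.5 in Th17 and 104 in naive. The TNF receptors Tnfrsf18 (GITR) and Tnfrsf4 (OX40) also met neither rule, at 193 CPM in Th0 and 383 CPM in Treg for the former and 183 CPM in Th0 and 339 CPM in Treg for the latter. Tigit, an inhibitory receptor, was the exception in direction, at 42.7 CPM in Th0 and 15.4 CPM in Treg (2.77-fold lower).

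**Figure D3:**
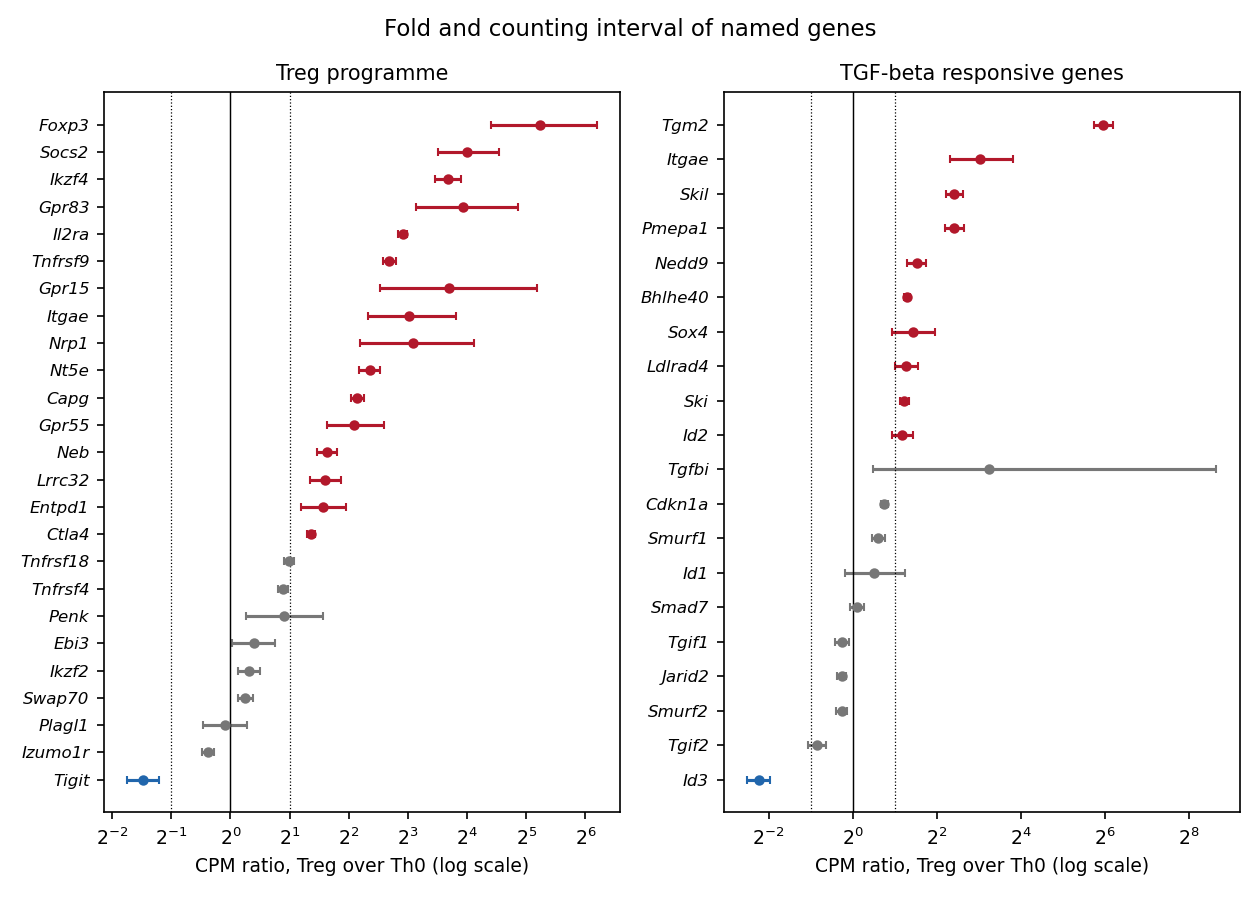
CPM ratio of Treg over Th0 on a log scale for tested members of the Treg programme (left) and of the TGF-beta responsive genes (right), with the 95% counting interval of each ratio. Red marks genes higher, blue lower and grey neither, the dotted lines mark 2-fold, and Foxp3 and Tgm2 lead their panels while Tigit and Id3 are the members called lower.

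The components of TGF-beta signalling itself were uneven. Among ligands, receptors and SMADs 11 of 22 tested members were higher and none was lower (50% higher), and 2 more did not pass the filter. Of the ligands, Tgfb3 stood at 8.93 CPM in Th0 and 70.1 CPM in Treg (7.85-fold), and Tgfb1, the form T cells mostly make, at 103 CPM in Th0 and 275 CPM in Treg (2.68-fold). Furin, the protease that cleaves the TGF-beta precursor, stood at 126 CPM in Th0 and 394 CPM in Treg (3.13-fold). The receptor genes Acvr2a and Acvrl1 were higher too, by 8.57-fold and 3.78-fold. The TGF-beta receptor kinase genes Tgfbr1 and Tgfbr2 and the receptor SMAD gene Smad3 met neither rule. Tgfbr1 was at 84.1 CPM in Th0 and 94.5 CPM in Treg, Tgfbr2 at 143 CPM in Th0 and 165 CPM in Treg and Smad3 at 93.1 CPM in Th0 and 88.2 CPM in Treg. Tgfbr2 was highest in the naive library, at 434 CPM.

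Genes known to respond to TGF-beta were higher in 11 of 21 cases and lower in 1, with a median log2 ratio of 1.15 and 4 more under the filter. Tgm2, a transglutaminase that cross-links proteins, was read at 1115 CPM in Treg against 17.9 in Th0, with 1670.3 in Th17 and 188 in naive. Th0 was the lowest of the 4 libraries for it, and the Treg level was 62.4-fold higher (interval 53.3 to 73.6). The feedback genes Skil and Pmepa1, which restrain SMAD activity, differed by 5.35-fold and 5.34-fold. Smad7, the best known of the feedback inhibitors, met neither rule at 58.5 CPM in Th0 and 62.7 CPM in Treg. Id3, an inhibitor of E proteins, was lower, at 62 CPM in Th0 and 13.2 CPM in Treg (4.71-fold), whereas its relative Id2 was higher, at 21.1 CPM in Th0 and 48 CPM in Treg (2.28-fold). Of the 9 tested genes that handle retinoic acid, a vitamin A product that favours Foxp3 expression, 3 were higher and 1 was lower. The higher ones were the uptake receptor Stra6, the binding protein Crabp2 and the receptor Rara, the last at 16.4 CPM in Th0 and 109 CPM in Treg (6.68-fold).

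Genes of the Th17 programme were also mostly higher in the Treg library. Of its 18 tested members 13 were higher and none was lower, with a median log2 ratio of 2.38. That median was above the one of the Treg programme, but with a pseudocount of 5 CPM (1.30 against 1.35) and with the authors' FPKM (1.35 against 1.48) it was below. Of the Th17 members 4 had no count in 1 of the libraries, and the summed level was 1.29-fold higher in Treg, against 3.15-fold for the Treg programme. The cytokine gene Il17f stood at 39.9 CPM in Treg against 0.458 in Th0, with 118 in Th17 and 0.245 in naive, and Il17a at 14.7 CPM in Treg against 0 in Th0, with 90.4 in Th17 and 0.245 in naive. Il17a was read 0 times in Th0 and 163 times in Treg (at least 42.8-fold higher). The chemokine receptor gene Ccr6 had no count in Th0 and 370 in Treg, which makes it at least 97.2-fold higher. Irf4, a factor of activated T cells that the Th17 and Treg programmes both need, stood at 83.6 CPM in Th0 and 685 CPM in Treg (8.2-fold). Stat3, which carries the IL-6 signal, met neither rule, at 477 CPM in Th0 and 588 CPM in Treg. The Treg library thus held genes of both routes at levels well above Th0, and whether the same cells carry both is not something bulk libraries can show.

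The other helper programmes went different ways. Of 18 tested Th1 genes 3 were higher and 1 was lower (16.7% and 5.56%), both below the shares of all genes. The lower gene was Tbx21, which encodes the Th1 master factor T-bet, at 9.02 CPM in Treg against 67.8 in Th0, with 6.1 in Th17 and 23.5 in naive. Th0 held the most of it, and Treg was 7.52-fold lower (interval 6.07 to 9.38). Ifng, the Th1 cytokine, met neither rule at 7.33 CPM in Th0 and 11 CPM in Treg. The higher genes were the receptor Cxcr6 and the death ligands Fasl and Tnfsf10, with Fasl at 18.2 CPM in Th0 and 64.1 CPM in Treg (3.52-fold).

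Of 14 Th2 genes 7 were higher and 2 were lower, and the 2 lower genes were the factor and the cytokine that define the subset. Gata3, the Th2 master factor, stood at 58.7 CPM in Treg against 127 in Th0, with 33.8 in Th17 and 57.5 in naive, a 2.16-fold lower level whose call held under 3 of 5 scalings. Il4 was read 31 times in Th0 and 8 times in Treg (4.92-fold lower). Among the higher genes were the chemokine receptors Ccr4, at 12.5 CPM in Th0 and 143 CPM in Treg (11.5-fold), and Ccr8, at 18.9 CPM in Th0 and 121 CPM in Treg (6.41-fold), and the cytokine Il24, at 5.84 CPM in Th0 and 66.4 CPM in Treg (11.4-fold), together with Crem, Dusp4 and Il10.

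Among 15 genes of follicular helper cells 2 were higher and 4 lower, with a median of -0.17 that became 0.17 with library totals. Bcl6, the factor that defines these cells, stood at 11.2 CPM in Treg against 127 in Th0, with 18.6 in Th17 and 69.2 in naive. Th0 was the highest of the 4 libraries and Treg the lowest, 11.4-fold lower (interval 9.46 to 13.8). The coactivator Pou2af1 was 10.9-fold lower, and Tox was 3.53-fold lower. Tcf7, which encodes TCF-1 and also marks naive cells, stood at 1517 CPM in Th0 and 621 CPM in Treg, a call that held under 4 of 5 scalings. Pdcd1, which encodes the inhibitory receptor PD-1, was higher, at 1.6 CPM in Th0 and 21.9 CPM in Treg (13.7-fold).

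Secreted cytokines were mostly higher in the Treg library. Of 23 tested 12 were higher and 1, Il4, was lower. Lif, an IL-6 family cytokine, stood at 509 CPM in Treg against 17.4 in Th0, with 703 in Th17 and 9.15 in naive. Both polarised cultures were far above the others, and Treg was 29.2-fold higher than Th0 (interval 24.9 to 34.6). Lta, which encodes lymphotoxin alpha, stood at 7.44 CPM in Th0 and 148 CPM in Treg (19.9-fold), and Tnfsf11, which encodes RANKL, was read 6 times in Th0 and 227 times in Treg (29.8-fold higher). Among the cytokine genes that met neither rule were Mif, at 166 CPM in Th0 and 216 CPM in Treg, and Ltb, at 219 CPM in Th0 and 141 CPM in Treg.

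Cytokine receptors were higher in 10 of 28 cases. Besides Il2ra these included Il2rb, the second chain of the IL-2 receptor, at 203 CPM in Th0 and 694 CPM in Treg (3.42-fold), and Il6ra, the IL-6 receptor chain, at 42.1 CPM in Th0 and 181 CPM in Treg (4.3-fold). The common chain Il2rg met neither rule, at 318 CPM in Th0 and 372 CPM in Treg. The receptor lower in Treg was Il10ra, at 86.8 CPM in Th0 and 31.1 CPM in Treg (2.79-fold). Of 23 JAK kinases, STAT factors and SOCS inhibitors 4 were higher (17.4%) and 1 lower (4.35%), both below the shares of all genes. The 4 higher ones were all SOCS genes. Socs1 stood at 26.3 CPM in Th0 and 139.9 CPM in Treg (5.31-fold), Socs6, which has a near-identical copy, was 3.19-fold higher, and Socs5 was 2.1-fold higher under 3 of 5 scalings. Jak1, the kinase shared by many cytokine receptors, was lower, at 967 CPM in Th0 and 445 CPM in Treg, a call that also held under 3 of 5.

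Chemokines and their receptors were higher in 12 of 21 cases and lower in none. After Ccr6 and Ccr4 came Ccl9, a chemokine with 2 counts in Th0 and 182 in Treg (71.7-fold higher, counting interval 19.6 to 596). Cxcl16, the ligand of CXCR6, was read 3 times in Th0 and 106 times in Treg (27.8-fold higher, counting interval 9.27 to 137), with part of its exons shared with another gene. Cxcr5, the receptor that leads cells into B cell follicles, met neither rule, at 20.4 CPM in Th0 and 33.5 CPM in Treg.

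Integrins and adhesion genes were higher in 12 of 28 cases and lower in 2. Itga7, a laminin-binding chain, stood at 0.687 CPM in Th0 and 42.8 CPM in Treg (62.4-fold), and Itga5, a fibronectin-binding chain, at 3.66 CPM in Th0 and 23.3 CPM in Treg (6.35-fold). Lama5, a laminin chain, stood at 98.1 CPM in Th0 and 450.4 CPM in Treg (4.59-fold). Itgb3, a chain of the vitronectin receptor, was lower, at 155 CPM in Th0 and 64.8 CPM in Treg (2.4-fold), a call that held under 4 of 5 scalings. Itgb2, the common chain of the leukocyte integrins, met neither rule at 696 CPM in Th0 and 917 CPM in Treg.

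Among costimulatory and coinhibitory receptors 6 of 23 were higher and 2 lower. Tnfrsf9 (4-1BB), a receptor of recently activated cells, stood at 89.4 CPM in Th0 and 574 CPM in Treg (6.43-fold), and the adhesion receptor Cd96 at 10.8 CPM in Th0 and 73.4 CPM in Treg (6.82-fold). Lag3 met neither rule, at 346 CPM in Th0 and 397 CPM in Treg. In the wider TNF family 11 of 31 were higher and 4 lower. Tnf itself stood at 4.58 CPM in Th0 and 33.7 CPM in Treg (7.37-fold) and the adaptor Traf6 at 69.3 CPM in Th0 and 248 CPM in Treg (3.58-fold). The lower ones included the death receptor Fas, at 191 CPM in Th0 and 49.1 CPM in Treg (3.89-fold), and the adaptor Traf5, at 83.4 CPM in Th0 and 20.5 CPM in Treg (4.08-fold), so that Fas and its ligand Fasl stood on opposite sides.

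**Figure D4:**
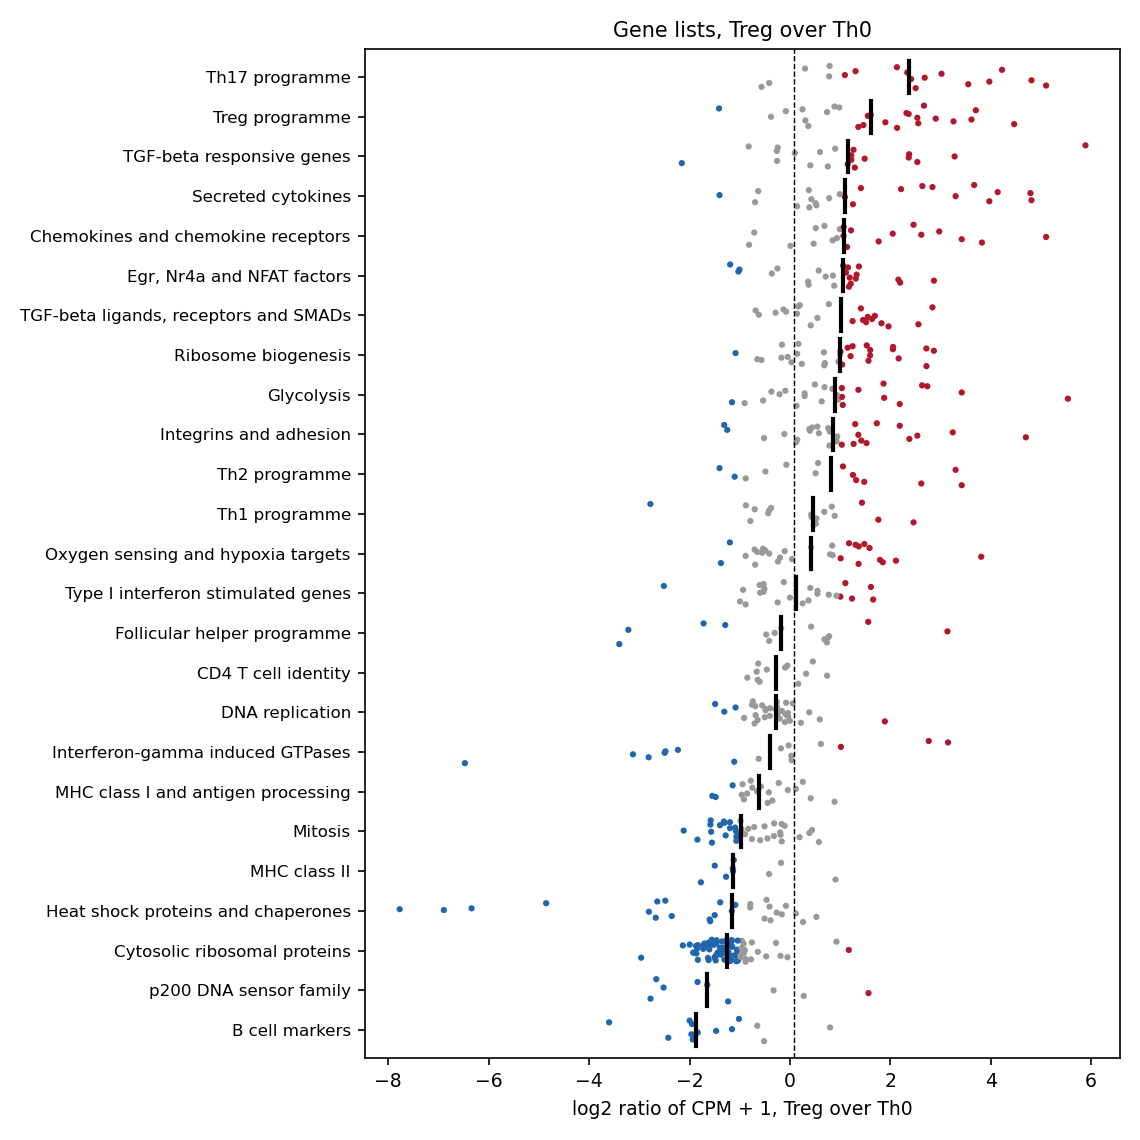
Log2 ratio of CPM plus 1, Treg over Th0, for each tested member of 25 gene lists, ordered by median (black bars). Red marks members higher, blue lower and grey neither, the dashed line is the median of all genes tested, and the lists run from the Th17 programme at a median of 2.38 to B cell markers at -1.88.

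Transcription factors of T cell activation were divided. Of 19 AP-1 and related factors 6 were higher and 2 lower. Maf, which drives Il10 and Il21 in T cells, stood at 25.8 CPM in Th0 and 134 CPM in Treg (5.21-fold), and Junb, a partner of BATF, at 107 CPM in Th0 and 419.6 CPM in Treg (3.9-fold). Jun stood at 117 CPM in Th0 and 50.2 CPM in Treg, lower under 4 of 5 scalings, and the repressor Bach1 was 3.4-fold lower. Jund was 3.91-fold higher, with 53% of its exonic bases shared with another gene. Bach2, which is known to hold back effector genes in Treg cells, met neither rule at 99.6 CPM in Th0 and 183 CPM in Treg.

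The Egr, Nr4a and NFAT genes, most of which respond to T cell receptor signals within hours, were higher in 12 of 23 cases and lower in 3. With GC and length centred 7 were higher and 2 lower. Egr1 stood at 21.2 CPM in Th0 and 101 CPM in Treg (4.75-fold), Ier2 at 24.7 CPM in Th0 and 114 CPM in Treg (4.61-fold) and Nfat5 at 274 CPM in Th0 and 689 CPM in Treg (2.52-fold). Nr4a1, Nr4a3 and Nfatc1 met neither rule, with Nr4a1 at 298 CPM in Th0 and 443 CPM in Treg. NF-kappaB factors showed no common direction, with 2 higher and 3 lower of 20. Nfkb2, of the noncanonical branch, stood at 76.1 CPM in Th0 and 241 CPM in Treg (3.16-fold) and the inhibitor Nfkbie at 10.6 CPM in Th0 and 57.3 CPM in Treg (5.38-fold). Rel, the c-Rel subunit that Foxp3 induction is known to need, was lower, at 456 CPM in Th0 and 174 CPM in Treg (2.63-fold).

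Among E proteins, Id proteins, Runx and Ikaros factors 6 of 24 were higher and 4 lower. Zbtb32, a repressor of cytokine genes, stood at 8.47 CPM in Th0 and 47 CPM in Treg (5.55-fold), and Irf8 at 115 CPM in Th0 and 301 CPM in Treg (2.63-fold). Ikzf3, which encodes Aiolos, was lower, at 159.7 CPM in Th0 and 51.1 CPM in Treg (3.12-fold), opposite to Ikzf4. Genes of naive, quiescent and homing T cells were mixed, with 8 of 29 higher and 3 lower. Igfbp4, a binding protein of insulin-like growth factors, stood at 1039 CPM in Treg against 131 in Th0, with 959.7 in Th17 and 345 in naive, and the antiproliferative gene Btg2 at 51.5 CPM in Th0 and 191 CPM in Treg (3.71-fold). Klf2, which controls exit from lymphoid tissue, stood at 22.9 CPM in Th0 and 74.6 CPM in Treg (3.26-fold). Of 8 Gimap genes, which encode lymphocyte survival GTPases, Gimap8 was higher, at 80.7 CPM in Th0 and 218 CPM in Treg (2.71-fold). Gimap7 and Gimap6 were lower, by 2.81-fold and 2.58-fold, and Gimap4 was lower under 3 of 5 scalings.

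The T cell receptor complex and its signalling genes mostly met neither rule, with 3 higher and 5 lower of 34. Ptprc, which encodes the phosphatase CD45, was among the 10 largest losses in CPM of any gene, at 1062 CPM in Treg against 5357 in Th0, with 988 in Th17 and 1989.5 in naive (5.04-fold lower). Th0 was the highest of the 4 for it. Of 78 tested T cell receptor V segments, none was lower and 1 of low count was higher.

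Genes of sugar use were often higher in the Treg library. Of 26 glycolytic genes 11 were higher and 1 was lower, with a median log2 ratio of 0.89. Hk2, the hexokinase that commits glucose to the pathway in dividing cells, was read at 194 CPM in Treg against 3.21 in Th0, with 407 in Th17 and 26.7 in naive. Th0 was the lowest of the 4 libraries, and Treg was 60.6-fold higher (interval 41.8 to 91.4). The phosphofructokinase gene Pfkl stood at 11.3 CPM in Th0 and 131 CPM in Treg (11.6-fold), the lactate exporter gene Slc16a3 at 21.6 CPM in Th0 and 149.9 CPM in Treg (6.93-fold) and the glucose transporter gene Slc2a1 at 18.5 CPM in Th0 and 120.3 CPM in Treg (6.49-fold). Pkm, the pyruvate kinase gene, was among the 10 largest gains in CPM, at 831 CPM in Th0 and 1704 CPM in Treg (2.05-fold). It has near-identical copies, its call held under 4 of 5 scalings, and it was lost with GC and length centred. Ldha, which makes lactate, stood at 497 CPM in Th0 and 1020.1 CPM in Treg (2.05-fold) with the same 2 limits on its call. Pgk1, Aldoa and Gpi1 met neither rule.

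Oxygen sensing genes and targets of the hypoxia factor HIF1 were higher in 11 of 29 cases and lower in 2. Egln3, a prolyl hydroxylase that marks HIF1 for degradation and is also its target, stood at 13.2 CPM in Th0 and 198 CPM in Treg (15-fold). Bnip3, a mitophagy receptor with a near-identical copy, stood at 11.9 CPM in Th0 and 45.5 CPM in Treg (3.83-fold), and the carbonic anhydrase Car12 at 2.63 CPM in Th0 and 14.7 CPM in Treg (5.58-fold). Hif1a itself met neither rule, at 1834 CPM in Th0 and 1378 CPM in Treg. Arnt, the partner of HIF1, and Vhl, the ligase subunit that binds hydroxylated HIF1, were lower, by 2.61-fold and 2.34-fold, the latter under 4 of 5 scalings.

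HIF1 is known to bind the core ACGTG. Promoters of 300 bases, from 250 before to 50 after the start, were read from RefSeq for GRCm38.p6 and searched on both strands. The core was found in 19.6% of all 32851 promoters, and in at least 1 promoter of 30 of the 48 glycolysis and hypoxia genes that had one. These were 16 of the 21 higher genes, 14 of the 24 that met neither rule and 0 of the 3 lower genes. By gene, 21.8% of all genes with a promoter had a match. Such a match is a description of letters and not of binding. The promoters of Hk2 (chr6:82774405-82774704, minus strand) and Ldha (chr7:46845554-46845853, plus strand) are printed 5′ to 3′ because these are the entry and exit steps of the pathway, with the core, on either strand, in capitals. Where matches on both strands overlap, the capitals run on as 1 stretch. Another RefSeq promoter of Ldha, not printed, had no match.
Hk2: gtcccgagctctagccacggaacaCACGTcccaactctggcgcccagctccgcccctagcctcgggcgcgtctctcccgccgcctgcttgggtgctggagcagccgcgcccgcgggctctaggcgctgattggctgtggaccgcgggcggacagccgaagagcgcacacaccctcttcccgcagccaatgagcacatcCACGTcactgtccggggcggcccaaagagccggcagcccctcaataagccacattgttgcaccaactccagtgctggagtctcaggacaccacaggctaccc
Ldha: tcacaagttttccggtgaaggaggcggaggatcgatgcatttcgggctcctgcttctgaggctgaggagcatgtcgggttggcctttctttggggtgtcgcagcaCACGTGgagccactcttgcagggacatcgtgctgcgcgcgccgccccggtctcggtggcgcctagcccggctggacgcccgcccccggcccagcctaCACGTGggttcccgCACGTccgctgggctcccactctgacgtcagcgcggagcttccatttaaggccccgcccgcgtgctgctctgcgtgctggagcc

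TCA cycle and glutamine genes split into 5 higher and 5 lower of 33, and none of them was lower with library totals. Pcx, which carboxylates pyruvate, stood at 2.17 CPM in Th0 and 23.8 CPM in Treg (10.9-fold), and Idh3a, a TCA dehydrogenase subunit, at 18.7 CPM in Th0 and 50.7 CPM in Treg (2.72-fold). Nuclear genes of the respiratory chain had 1 higher and 9 lower of 75 (1.33% and 12%), with a median log2 ratio of -0.56. The share of lower genes equalled the background, whereas the share of higher genes was below the 20.2% of all genes. With library totals the median was -0.22, against 0.39 for all genes. The clearest of the lower genes was Atp5e, a subunit of ATP synthase, at 214 CPM in Th0 and 65.5 CPM in Treg (3.26-fold). The lower count became 2 with library totals.

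The transcripts of the mitochondrial genome were higher in 8 of 13 cases, yet their summed level was lower, at 34173 CPM in Treg against 44996 in Th0. None was called lower under the main scaling, library totals, upper quartile factors or GC centring, whereas 1 was lower with DESeq2 size factors, which left 7 higher, and 1 with TMM over this pair alone. mt-Cytb stood at 1941 CPM in Treg against 463 in Th0, with 1878 in Th17 and 4258 in naive, mt-Nd5 at 1908 CPM in Treg against 606 in Th0, with 1625 in Th17 and 2303 in naive and mt-Nd4 at 1143 CPM in Treg against 221 in Th0, with 1183 in Th17 and 2892 in naive. These 3 were among the 10 largest gains in CPM. The transcript with most counts, mt-Co1, met neither rule at 34662 CPM in Th0 and 17614 CPM in Treg, and in CPM it was the largest loss of any gene. Near-identical nuclear copies make the split between mt-Co1, mt-Nd4, mt-Nd5 and their copies uncertain.

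Of 17 genes of fatty acid synthesis and desaturation 5 were higher (29.4%) and 1 was lower. Scd1, a desaturase, stood at 291 CPM in Treg against 43.7 in Th0, with 138 in Th17 and 126 in naive (6.65-fold), and the elongase Elovl6 at 31.1 CPM in Th0 and 92.6 CPM in Treg (2.97-fold). Fasn, the synthase, stood at 219.8 CPM in Th0 and 491 CPM in Treg, a call lost with GC centred. Cholesterol genes split evenly, with 3 higher and 3 lower of 29, and Insig1, the sensor that holds back the pathway, was at 403 CPM in Th0 and 152 CPM in Treg (2.66-fold lower). Among 15 lysophospholipid acyltransferases, which remodel membrane phospholipids, 5 were higher (33.3%) and none was lower. Lpcat4, the enzyme named in the series title, met neither rule at 41.7 CPM in Treg against 60.6 in Th0, with 44 in Th17 and 49.6 in naive. Gpam was 2.75-fold higher and Lpgat1 2.29-fold higher, whereas the calls of Agpat1 and Lpcat3 were lost with GC centred.

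Among amino acid transporters 5 of 19 were higher (26.3%) and 2 lower (10.5%), near the shares of all genes. With DESeq2 size factors or GC centred 4 were higher. Slc1a4 stood at 6.52 CPM in Th0 and 37.7 CPM in Treg (5.78-fold) and Slc36a4 at 7.9 CPM in Th0 and 36 CPM in Treg (4.56-fold). Of 21 genes of the ATF4 stress response and of serine and one-carbon metabolism 7 were higher. Sesn2, an inhibitor of mTORC1, stood at 44.2 CPM in Th0 and 134 CPM in Treg (3.04-fold), while Atf4 itself stood at 827 CPM in Th0 and 353 CPM in Treg, lower under 4 of 5 scalings. In the polyamine pathway the arginase gene Arg1 was read 0 times in Th0 and 182 times in Treg (at least 47.8-fold higher), and Sat1, the catabolic acetyltransferase, stood at 261 CPM in Th0 and 86.2 CPM in Treg (3.03-fold lower). Nucleotide synthesis had 6 higher and 4 lower of 26 (23.1% and 15.4%), also near the shares of all genes, and the higher count fell to 4 with DESeq2 size factors and 3 with GC centred. The purine enzyme Gart was 3.1-fold higher and the kinase Dck 2.69-fold lower. Of 11 tested genes of the Myc, Max and Mxd network 1 was higher and 3 were lower. Their median log2 ratio was -0.33, which became 0.01 with library totals. The higher gene was Myc, at 26.8 CPM in Th0 and 54.7 CPM in Treg, a call that held under 3 of 5 scalings and was lost with GC centred.

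By the count of called members, ribosome production and ribosomal protein genes stood on opposite sides. Of 30 ribosome biogenesis genes 15 were higher and 1 was lower. The summed level of these genes was nevertheless lower, at 3499 CPM in Treg against 4218 in Th0, with 4676 in Th17 and 3258 in naive. Polr1b, the second largest subunit of RNA polymerase I, stood at 2.63 CPM in Th0 and 25.5 CPM in Treg (9.69-fold), and the processing factors Bop1 and Rrp12 at 8.81 CPM in Th0 and 63.7 CPM in Treg (7.22-fold) and 5.61 CPM in Th0 and 42.5 CPM in Treg (7.57-fold). The lower member was Npm1, an abundant nucleolar chaperone with near-identical copies, at 2012 CPM in Th0 and 949 CPM in Treg, under 3 of 5 scalings. Of 84 genes for cytosolic ribosomal proteins 65 were lower and 1 was higher, with a median log2 ratio of -1.25. Their summed level was 40381 CPM in Treg against 99942 in Th0, with 40888 in Th17 and 30429 in naive, so that Th0 alone was high. With library totals 36 were lower, and with GC and length centred 58. Rpsa stood at 6632 CPM in Th0 and 2254 CPM in Treg (2.94-fold lower), Rpl4 at 7647 CPM in Th0 and 3092 CPM in Treg (2.47-fold lower, under 4 of 5 scalings) and Rps2 at 2206 CPM in Th0 and 502 CPM in Treg (4.39-fold lower). Most of these genes have near-identical processed copies, so the counts of single members are uncertain. The elongation factors Eef1a1 and Eef2, with the same limit, were among the 10 largest losses in CPM although they met neither rule, Eef1a1 at 22682 CPM in Th0 and 13473 CPM in Treg and Eef2 at 11769.5 CPM in Th0 and 7392 CPM in Treg. Hosts of small nucleolar RNAs and other nuclear transcripts were also lower in 6 of 13 cases, a count that includes Rpph1, itself not a host. Snhg6 stood at 193 CPM in Th0 and 40.7 CPM in Treg (4.75-fold), and the nuclear RNA Neat1 was higher, at 115 CPM in Th0 and 349 CPM in Treg (3.04-fold).

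Cell division genes were often lower in the Treg library. Of 38 mitosis genes 18 were lower and none was higher, with a median log2 ratio of -0.97. With library totals 7 were lower and with GC and length centred 13. The kinesin gene Kif18a stood at 30.8 CPM in Treg against 137 in Th0, with 28.1 in Th17 and 5.8 in naive (4.44-fold lower), and the checkpoint kinase gene Bub1 at 65 CPM in Treg against 236 in Th0, with 58.4 in Th17 and 11 in naive (3.63-fold lower). Kif11, the motor that pushes the spindle poles apart, stood at 801 CPM in Th0 and 269 CPM in Treg (2.98-fold lower). Mki67, the gene of the proliferation antigen Ki-67, met neither rule at 921 CPM in Treg against 991 in Th0, with 781 in Th17 and 218 in naive. DNA replication genes showed much less, with 1 higher and 3 lower of 33. Fen1, the flap endonuclease, was at 11.8 CPM in Th0 and 46.4 CPM in Treg (3.94-fold higher), and Rfc4, a clamp loader subunit, at 57.2 CPM in Th0 and 19.7 CPM in Treg (2.9-fold lower). Mcm6 met neither rule, at 291 CPM in Th0 and 245 CPM in Treg.

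The G1 regulators were split. Ccnd3, a D-type cyclin, stood at 378 CPM in Treg against 48.5 in Th0, with 105 in Th17 and 162 in naive, highest in Treg of the 4 libraries and 7.79-fold higher than in Th0 (interval 7.05 to 8.63). Ccnd2 stood at 277 CPM in Th0 and 1138 CPM in Treg (4.11-fold) and their kinase Cdk6 at 54.6 CPM in Th0 and 154 CPM in Treg (2.83-fold). In all 4 of 23 were higher and 5 lower (17.4% and 21.7%), and none of the lower ones was lower with library totals. The median log2 ratio of these G1 genes was -0.21, which became 0.13 with library totals. The lower G1 genes included the inhibitor Cdkn1b, at 468 CPM in Th0 and 221 CPM in Treg, under 3 of 5 scalings and lost with GC centred. Of 17 tested histone genes 9 were lower, most of them with few counts. Hist1h4i, which has near-identical copies, stood at 23.1 CPM in Th0 and 2.25 CPM in Treg (10.3-fold lower).

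Survival and death genes were split. Of 28 Bcl2 family and caspase genes 3 were higher and 6 lower. The survival gene Bcl2 stood at 595 CPM in Treg against 203 in Th0, with 763 in Th17 and 167 in naive (2.93-fold). Bcl2l11, which encodes the death protein BIM, stood at 156 CPM in Th0 and 41 CPM in Treg (3.8-fold lower), and Bbc3, which encodes PUMA, at 163 CPM in Th0 and 48.6 CPM in Treg (3.36-fold lower). The caspase inhibitor Xiap was also lower, at 181 CPM in Th0 and 44.3 CPM in Treg (4.09-fold). Mcl1 met neither rule, at 625 CPM in Th0 and 613 CPM in Treg. Besides Bbc3, p53 targets had Sesn2 higher, and Zmat3, Sesn1 and Mdm2 lower under 3 or 4 of 5 scalings.

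The lowest ratios of any genes belonged to the heat shock response, in which heat shock factor 1 induces chaperones that refold damaged proteins. Of 27 tested members 15 were lower and none was higher (55.6% lower), with a median log2 ratio of -1.16. Under library totals 13 were lower. Hspa1b, an inducible HSP70 gene, was read at 1.8 CPM in Treg against 612 in Th0, with 7.16 in Th17 and 20.9 in naive. Hspa1a stood at 2.71 CPM in Treg against 439 in Th0, with 7.32 in Th17 and 16.4 in naive. Hspa1b was 339-fold lower (interval 219.6 to 556) and Hspa1a 162-fold lower (interval 114 to 241). The pair lies on chromosome 17 and is near-identical, so the split of reads between them is uncertain. Th0 was far above all 3 other libraries, including the naive one. Hspa1l was read 955 times in Th0 and 4 in Treg (303-fold lower), with 72% of its exonic bases shared with another gene. Hspb1, a small heat shock protein with a near-identical copy, was read 267 times in Th0 and 1 in Treg (339-fold lower, counting interval 60.3 to 13437). The abundant chaperone Hsp90aa1, also with copies, stood at 191 CPM in Treg against 1341 in Th0, with 237 in Th17 and 422 in naive (7.04-fold lower), and its cochaperone Hsph1 at 52.5 CPM in Treg against 298 in Th0, with 48 in Th17 and 402 in naive (5.68-fold lower). The mitochondrial chaperone Hspa9 met neither rule, at 489.6 CPM in Th0 and 283 CPM in Treg.

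Heat shock factor binds inverted repeats of GAA, and a run of 3 such units (GAA, any 2 bases, TTC, any 2 bases, GAA, on either strand) was found in 0.603% of the 32851 promoters. Of the 23 heat shock genes with a promoter 4 had a match. Matches stood in 3 of the 12 genes lower in Treg and in 1 of the 10 that met neither rule. The lower genes with a match were Hsph1 and the divergent pair Hspe1 and Hspd1, whose promoters overlap and share the same stretch. Chordc1, the other gene with a match, met neither rule. The promoters of Hspa1a, Hspa1b, Hspa1l and Hspb1 had no match. The promoters of Hspe1 (chr1:55087898-55088197, plus strand) and Hsph1 (chr5:149636287-149636586, minus strand) are shown with the element in capitals because a motif this rare stood in them. Hspe1, the cochaperonin of Hspd1, stood at 757 CPM in Th0 and 120.5 CPM in Treg (6.29-fold lower).
Hspe1: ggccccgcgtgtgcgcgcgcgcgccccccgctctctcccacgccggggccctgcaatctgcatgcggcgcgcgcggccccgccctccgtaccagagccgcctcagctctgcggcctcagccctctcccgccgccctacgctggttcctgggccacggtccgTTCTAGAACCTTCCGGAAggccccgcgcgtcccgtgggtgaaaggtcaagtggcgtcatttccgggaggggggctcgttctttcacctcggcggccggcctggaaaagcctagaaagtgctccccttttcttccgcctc
Hsph1: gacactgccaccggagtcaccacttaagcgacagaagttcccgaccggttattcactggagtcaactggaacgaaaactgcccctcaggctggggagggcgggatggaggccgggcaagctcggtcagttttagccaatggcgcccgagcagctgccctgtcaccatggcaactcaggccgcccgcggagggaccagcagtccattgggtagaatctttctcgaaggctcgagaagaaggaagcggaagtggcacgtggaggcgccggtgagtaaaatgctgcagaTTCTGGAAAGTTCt

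Metallothioneins, which bind zinc and copper and are induced by metal and stress, were low in Treg as well. Mt1 stood at 12.2 CPM in Treg against 304 in Th0, with 26.6 in Th17 and 7.35 in naive, and Mt2 at 7.48 CPM in Treg against 212 in Th0, with 12.8 in Th17 and 1.88 in naive. Both were highest in Th0, with Mt1 25-fold lower (interval 21 to 29.9) and Mt2 28.4-fold lower (interval 22.8 to 35.8) in Treg. Slc30a1, the zinc exporter that the same metal-responsive factor controls, stood at 15 CPM in Treg against 52.5 in Th0, with 16.4 in Th17 and 35.9 in naive (3.51-fold lower). In the whole list of metal handling genes 5 of 21 were lower and 2 higher, with a median of -0.15 that became 0.20 with library totals. The zinc importers Slc39a6 and Slc39a14 were higher, by 2.92-fold and 2.63-fold. Ftl1, the ferritin light chain, stood at 893 CPM in Th0 and 323 CPM in Treg (2.77-fold lower).

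The core of the metal response element, TGCNCNC, is short and stood on either strand in 51.0% of all promoters. By gene, 53.6% of all genes with a promoter had a match, and 13 of the 17 members that had one. These were 4 of the 5 lower genes and 9 of the 12 that met neither rule. At least 3 matches stood in 6.43% of all promoters, and the promoter of the member Slc30a4, which met neither rule, held 5. The promoters of Mt2 (chr8:94172368-94172667, plus strand) and Mt1 (chr8:94178839-94179138, plus strand), neighbours on the same chromosome, held 6 and 3 stretches, in capitals below.
Mt2: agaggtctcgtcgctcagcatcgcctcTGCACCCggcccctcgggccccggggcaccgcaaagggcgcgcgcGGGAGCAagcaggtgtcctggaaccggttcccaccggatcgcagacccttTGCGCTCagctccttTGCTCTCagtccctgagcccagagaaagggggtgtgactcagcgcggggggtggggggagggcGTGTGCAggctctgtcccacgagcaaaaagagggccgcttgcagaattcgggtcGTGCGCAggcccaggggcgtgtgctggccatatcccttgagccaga
Mt1: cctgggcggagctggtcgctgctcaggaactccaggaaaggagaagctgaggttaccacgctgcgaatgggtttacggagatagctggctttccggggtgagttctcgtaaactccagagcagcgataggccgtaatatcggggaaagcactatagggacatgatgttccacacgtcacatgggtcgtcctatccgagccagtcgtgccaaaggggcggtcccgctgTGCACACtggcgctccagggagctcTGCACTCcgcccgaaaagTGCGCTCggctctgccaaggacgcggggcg

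Chaperones of the endoplasmic reticulum did not follow the heat shock genes. Of 24 genes of the unfolded protein response 2 were higher and 4 lower. Xbp1, a main factor of this response, stood at 79 CPM in Th0 and 326 CPM in Treg (4.12-fold), and Ddit3, which encodes the stress factor CHOP, at 205 CPM in Th0 and 59 CPM in Treg (3.48-fold lower). Hsp90b1 and Calr met neither rule, with Hsp90b1 at 545 CPM in Th0 and 479 CPM in Treg. Antioxidant genes had 1 higher and 3 lower of 30, all of low count or called under 3 of 5 scalings. Proteasome genes had 1 higher, the activator subunit Psme3 at 61.8 CPM in Th0 and 160.2 CPM in Treg (2.59-fold), and 6 lower of 41, none of which was lower with library totals.

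Genes induced by interferon gamma were divided by family. Of 16 tested GTPases 7 were lower and 3 higher. All the lower ones were guanylate-binding proteins, which attack vacuoles that hold microbes. Gbp4 stood at 33.6 CPM in Treg against 242 in Th0, with 40.2 in Th17 and 230.1 in naive (7.21-fold lower), Gbp8 at 17.4 CPM in Treg against 102 in Th0, with 22 in Th17 and 99 in naive (5.84-fold lower) and Gbp9 at 22.8 CPM in Treg against 111 in Th0, with 25.8 in Th17 and 255 in naive (4.86-fold lower). Gbp10 was read 1118 times in Th0 and 5 in Treg, 284-fold lower, and shares near-identical sequence with Gbp6. The T cell GTPases Tgtp1 and Tgtp2, a near-identical pair, were higher, by 20.4-fold and 12.4-fold. Igtp met neither rule, at 232 CPM in Th0 and 205 CPM in Treg. Type I interferon genes had 5 higher and 1 lower of 24 (20.8% and 4.17%), with the higher share near that of all genes. Parp14 stood at 32.4 CPM in Th0 and 101 CPM in Treg (3.12-fold) and Rsad2 at 8.81 CPM in Th0 and 0.721 CPM in Treg (12.2-fold lower).

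The p200 family of DNA sensors was mostly lower, in 6 of 9 cases, with a median log2 ratio of -1.65. Mndal stood at 22.1 CPM in Treg against 131 in Th0, with 10.5 in Th17 and 291 in naive (5.94-fold lower), Pyhin1 at 75 CPM in Th0 and 11 CPM in Treg (6.82-fold lower) and Ifi203 at 64.6 CPM in Th0 and 8.57 CPM in Treg (7.54-fold lower), the last 2 with near-identical copies. Aim2, the sensor that forms an inflammasome on DNA, stood at 80.7 CPM in Th0 and 33.8 CPM in Treg, a call lost under 1 of 5 scalings and with GC centred. MHC class I genes had 3 lower of 20 and none higher. The nonclassical genes H2-Q4 and H2-Q6 stood at 1034 CPM in Th0 and 371 CPM in Treg and 438 CPM in Th0 and 149 CPM in Treg, and H2-K1 met neither rule at 3411 CPM in Th0 and 1808 CPM in Treg. Cytotoxic granule genes were split, with Gzma higher, at 44.2 CPM in Th0 and 190.0 CPM in Treg (4.3-fold), and Gzmb lower, at 147 CPM in Th0 and 25.2 CPM in Treg (5.82-fold).

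Of 22 genes of Polycomb complex 2, DNA methylation and TET oxidation 4 were lower and none was higher. Ezh2, the methyltransferase of H3K27, stood at 77.2 CPM in Treg against 327 in Th0, with 62.1 in Th17 and 50.8 in naive (4.23-fold lower), Tet2, which oxidises methylcytosine, at 66.5 CPM in Treg against 247 in Th0, with 119 in Th17 and 99.6 in naive (3.71-fold lower), and the H3K27 demethylase Kdm6a at 65.6 CPM in Treg against 229.7 in Th0, with 70 in Th17 and 87.1 in naive (3.5-fold lower). Dnmt1, the maintenance methyltransferase, met neither rule at 399 CPM in Th0 and 285 CPM in Treg. Among 8 H3K36 methyltransferases 2 were higher and 2 lower. Setd2, the enzyme of H3K36 trimethylation in the series title, stood at 133 CPM in Treg against 341 in Th0, with 149.6 in Th17 and 246 in naive (2.56-fold lower, interval 2.4 to 2.73). Smyd2 was higher, at 6.98 CPM in Th0 and 33 CPM in Treg (4.73-fold).

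Receptors for small mediators were a further group with many higher members. Of 15 purinergic genes 7 were higher and 1 was lower. Nt5e (CD73) and Entpd1 (CD39), which turn extracellular ATP into adenosine and serve Treg suppression, stood at 185 CPM in Treg against 36.2 in Th0, with 109 in Th17 and 54.6 in naive for the former and 8.81 CPM in Th0 and 26.1 CPM in Treg for the latter (5.11-fold and 2.96-fold). The ATP-gated channel P2rx7 stood at 80.4 CPM in Treg against 14 in Th0, with 38.3 in Th17 and 104 in naive (5.76-fold). The adenosine receptors split, with Adora2b read 3 times in Th0 and 154 in Treg (40.4-fold higher, counting interval 13.6 to 198) and Adora2a lower, at 96.8 CPM in Th0 and 29 CPM in Treg (3.34-fold). Eicosanoid genes were higher in 6 of 18 cases and lower in 1. Cysltr1, a receptor for cysteinyl leukotrienes, was read 7 times in Th0 and 558 in Treg (62.8-fold higher), and the prostaglandin receptor Ptger4 stood at 16.8 CPM in Th0 and 46.1 CPM in Treg (2.74-fold). Of 25 annexins, S100 proteins, galectins and related genes 7 were higher and none was lower, with Capg, an actin capper, at 81.4 CPM in Th0 and 361 CPM in Treg (4.43-fold) and Vim, an intermediate filament gene, at 238 CPM in Th0 and 769 CPM in Treg (3.22-fold). Lysosome genes had 3 higher and 2 lower of 29.

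Some of the largest ratios stood outside these groups. Myof, a membrane repair protein, was read 9 times in Th0 and 1661 in Treg, and stood at 149.8 CPM in Treg against 1.03 in Th0, with 83.2 in Th17 and 31.3 in naive (145-fold higher, interval 76.4 to 319). Other genes among the 15 highest ratios were Ermn, at 4.81 CPM in Th0 and 182 CPM in Treg, the sphingosine receptor S1pr3, at 0.458 CPM in Th0 and 38.8 CPM in Treg, and the synaptotagmin Syt13, at 0.687 CPM in Th0 and 44.5 CPM in Treg. Clec7a, the fungal sensor Dectin-1, and Ppp1r14c had no count in Th0 and 253 and 228 in Treg. Crispld2 was read 3 times in Th0 and 454 times in Treg (119-fold higher, counting interval 40.5 to 580.2). Among the largest gains in CPM were also Ecm1, a secreted matrix protein, at 1060.3 CPM in Treg against 134 in Th0, with 1296 in Th17 and 60.1 in naive, and Rbpj, the nuclear partner of Notch, at 927 CPM in Treg against 157 in Th0, with 1134 in Th17 and 75.1 in naive, the latter with near-identical copies. At the low end stood Serpinb5, a serpin, at 41.8 CPM in Th0 and 0.451 CPM in Treg (92.7-fold lower), Cldn10, a claudin, at 23.8 CPM in Th0 and 0.18 CPM in Treg (132-fold lower, counting interval 36.1 to 1097), Rasgef1a, at 29.1 CPM in Th0 and 1.8 CPM in Treg (16.1-fold lower), and the surface gene Cd7, at 39.4 CPM in Th0 and 3.52 CPM in Treg (11.2-fold lower).

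**Figure D5:**
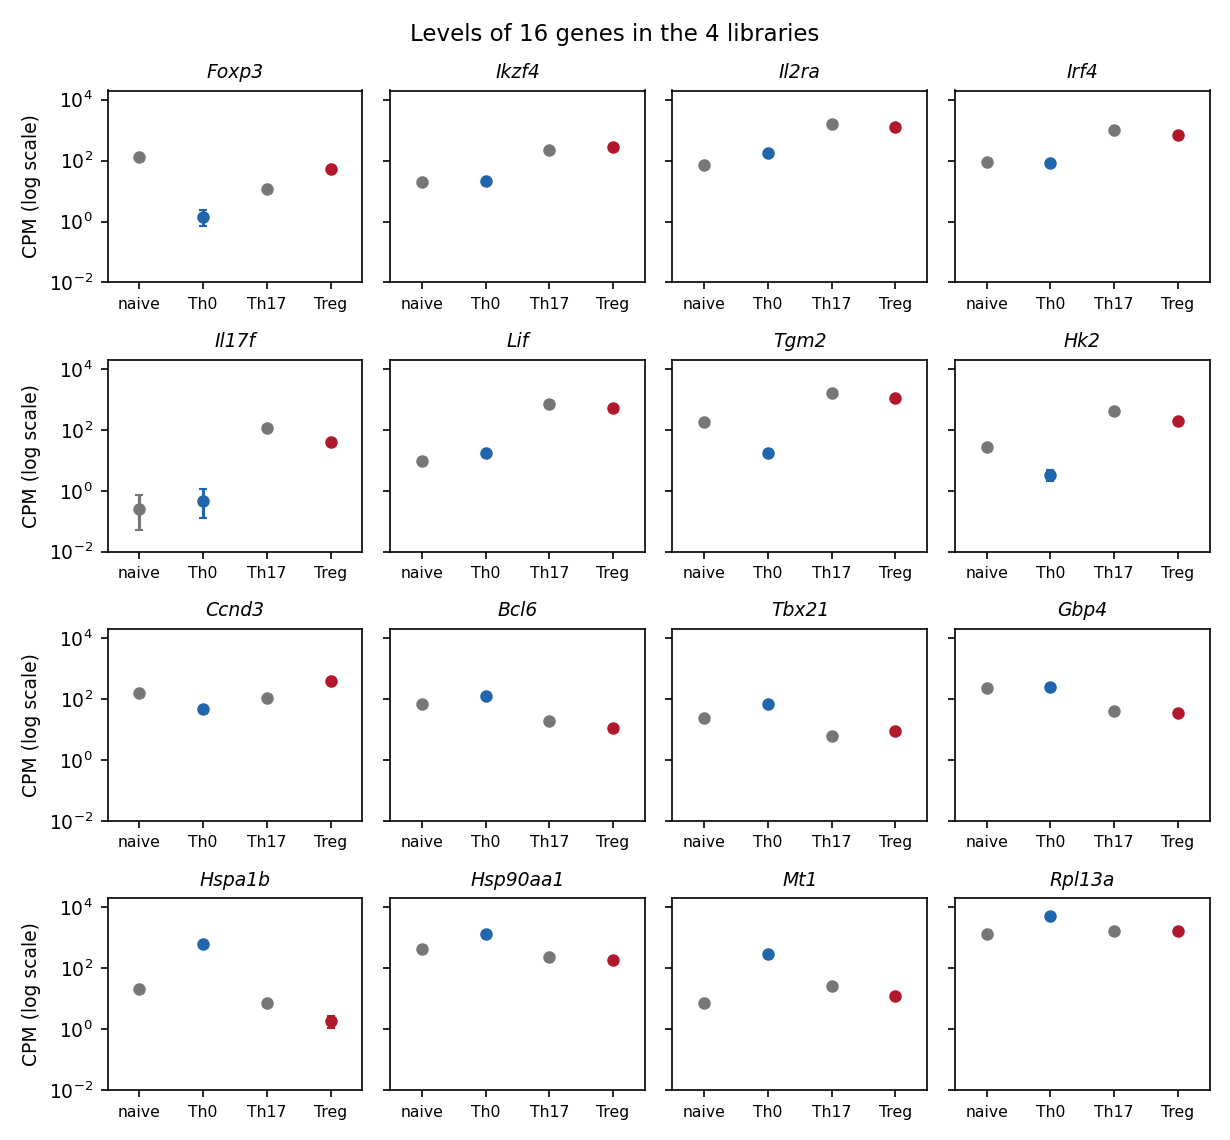
CPM of 16 genes in each of the 4 libraries on a log scale, with exact 95% Poisson intervals of the level where they exceed the point. In the upper rows Th0 (blue) is below Treg (red), and for Bcl6, Tbx21, Gbp4, Hspa1b, Hsp90aa1, Mt1 and Rpl13a the Th0 library is the highest of the 4.

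Markers of other cell types moved with the comparison and are given here for each list. Of 14 tested B cell markers 11 were lower, and their summed level was 126 CPM in Treg against 496 in Th0, with 269 in Th17 and 4223 in naive. Cd79a stood at 3.61 CPM in Treg against 16.9 in Th0, with 14.1 in Th17 and 165 in naive, and Ighm at 83.6 CPM in Treg against 325 in Th0, with 141 in Th17 and 2132 in naive. MHC class II genes, which B cells and myeloid cells express, were lower in 6 of 9 cases, with sums of 248 CPM in Treg against 558 in Th0, with 266 in Th17 and 5584 in naive, and with 2 lower with library totals. The Th0 library therefore held more B cell transcripts than Treg, and their part in the genes lower in Treg was not tested.

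Myeloid markers moved the other way at low levels. Of 12 tested macrophage and monocyte markers 5 were higher, with sums of 32.9 CPM in Th0 and 64.7 in Treg, against 4883 in naive. Of the whole list 2 of 13 markers had no count in Th0 and 1 had none in Treg. The B cell list had 0 of 16 at 0 in Th0 and 1 in Treg. Dendritic cell markers were higher in 5 of 8 cases, with sums of 266 and 306 CPM. The most changed were Sirpa, with 4 and 141 counts, Fscn1, at 3.32 CPM in Th0 and 37.1 CPM in Treg, and Itgax, which has a near-identical copy, at 0.572 CPM in Th0 and 13.9 CPM in Treg. The part of such cells in the higher genes was not tested. Of 10 CD8 T and NK cell markers 3 were higher, and Cd8a met neither rule at 35.8 CPM in Th0 and 30.7 CPM in Treg. Kit, the growth factor receptor of mast cells, was the sole mast cell or basophil marker to pass the filter, at 222 CPM in Treg against 10.9 in Th0, with 137 in Th17 and 51.9 in naive (20.4-fold), and both polarised cultures held it. Of 7 markers of gamma-delta and innate-like T cells 2 were higher and 1 was lower. The lists for neutrophils, for red cells and platelets and for stroma had 3, 2 and 2 tested members.

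Transcript classes also differed. Of 688 tested long noncoding RNAs 245 (35.6%) were higher and 69 lower, against 2321 (19.7%) and 1326 (11.3%) of 11762 protein-coding genes. Of 281 unverified transcripts that the annotation lists as still to be experimentally tested, 118 (42.0%) were lower. Of 9 immunoglobulin constant genes 7 were lower. The Y-linked gene Ddx3y was lower as well, at 85.8 CPM in Treg against 277 in Th0, with 96.2 in Th17 and 191 in naive (3.23-fold), with all 4 libraries holding it.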

How the data were processed

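The deposited table gives a raw count for each gene in the 4 libraries, as whole numbers, and, per the file headers, an FPKM value by the authors beside it. Per the submitters' processing notes, the builds were mm10 and GRCm38.p6 and the tools Bowtie2 and RSEM, with no version. Strandedness and annotation are not named there or in the labels, and reads of overlapping genes cannot be told apart. If the counts came from RSEM estimates they had been rounded, and reads shared by near-identical genes may have been split.

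Groups came from the treatment and cell type in the labels. Counts were scaled with TMM factors over all 4 libraries (edgeR 4.0.16, R 4.3.3), which were 0.850 for Th0 and 1.08 for Treg. Log2 ratios were taken after adding 1 CPM, and so lie closer to 0 than the folds, which were taken without it, in low genes. The call needed at least 2-fold and a count ratio whose 95% Clopper-Pearson interval, conditional on the sum, excluded 1. Every gene past 2-fold also met the interval rule. Where a count was 0 the fold is a bound against 3 counts in that library, which are worth 0.343 CPM in Th0 and 0.271 CPM in Treg. The calls were tested on simulated data. Reads without molecular identifiers are not independent molecules, so intervals cover only counting error.

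The lists, members and rule for named genes were chosen with earlier results of these data known. Named were the 15 highest and 15 lowest ratios among called genes that reached 10 CPM in either library, the 10 largest CPM differences in each direction, up to 5 called members in each direction and 3 others of each list, and a set of lineage genes. Predicted genes, receptor segments, pseudogenes and mitochondrial genes were left out of the ratios. Some genes that the rule names are not reported here, and Aim2, Chordc1, Furin, Gbp9, Hspd1, Hspe1, Hsph1, Id2, Il10, Il2rb, Ldha and Traf6 stand outside the rule and were chosen after their values were seen. Transcript GC, length and exon overlap came from GENCODE vM21 (bedtools 2.31.1), with values for 99.6% of tested genes. A near-identical copy was another gene's transcript that aligned with minimap2 2.31 over 300 nt or more at 95% identity. Promoters are RefSeq entries of GRCm38.p6. Alternatives included library totals, upper quartile factors, DESeq2 1.42.0 factors and the authors' FPKM. Python 3.11.15 was used with scipy 1.17.1, matplotlib 3.10.9, pandas 2.3.3 and numpy 2.4.6.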

Additional observations from a re-analysis of the deposited data

How the results depend on the processing

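With 1 library per group nothing here has a replicate check. No paired analysis was possible because each group had 1 library and the labels carry no replicate numbers. The number of genes higher in Treg than in Th0 was 2653, and it became 1341 with a pseudocount of 5 CPM and 1148 with a 3-fold rule. The number of genes lower in Treg than in Th0 was 1575, and it became 810 with library totals, 597 with the authors' FPKM and 443 with the 3-fold rule. DESeq2 size factors, upper quartile factors, TMM over the Th0 and Treg libraries alone, a pseudocount of 0.5 CPM, a minimum of 50 counts or none, and centring on GC and length (added after seeing the data) kept both counts within 1.5 times. No called gene that was named changed direction. Calls were followed for 576 genes, which were every called list member, the largest ratios and differences, and some of the lineage genes. A few of these, such as mt-Co1 and Smad7, met neither rule. Calls lost were 173 with the authors' FPKM, 121 with library totals, 112 with a pseudocount of 5 CPM and 78 with GC and length centred. A further 67 were lost with upper quartile factors, 23 with DESeq2 size factors, 10 with TMM over the pair and none with a pseudocount of 0.5 CPM. List medians changed sign in 17 of 73 lists with library totals, 17 with FPKM, 4 each with GC centred and upper quartile factors, 2 of 72 with a minimum of 50 counts and 1 with DESeq2 size factors. The cause of these shifts was not tested. Depth limited genes with 10 to 29 counts, whose median interval reached 2.95-fold to either side.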
